A study of Homo sapiens with 24 samples.

Results

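The 10 genes described here encode heat shock proteins of the cytosol and the mitochondrion. They are HSPA1A, HSPA1B, HSPH1 and DNAJB1, which stress induces, the HSP90 pair HSP90AA1 and HSP90AB1, the constitutive HSPA8, the small heat shock protein gene HSPB1, and the mitochondrial pair HSPD1 and HSPE1. They were taken by symbol from a count table of 54583 genes, and all 10 were among the 12058 genes counted at least once in every library and therefore tested. The libraries came from PANC-1, a human cell line grown from a carcinoma of the pancreatic duct that was used in every group, with no genetic change named in the labels. Plates were kept for 6 hours with 40 µM CID661578, with 5 µM cercosporamide, or with the solvent DMSO, and the labels class both compounds as MNK2 inhibitors. MNK2 is a kinase that phosphorylates the cap-binding factor eIF4E. In the study's own assays CID661578 left the kinase activity of MNK2 unchanged in vitro and strongly reduced MNK2 binding to the scaffold protein eIF4G. Phosphorylated eIF4E rose in PANC-1 cells with either compound, each at 40 µM. Each of 4 replicates held 1 sample of cells per treatment, called a plate here, although the number of plates per sample is not stated. From each of the 12 samples 2 libraries were made, 1 of total cytosolic RNA and 1 of polysome RNA, the mRNA carrying more than 3 ribosomes. The doses of the 2 compounds differ, and both were compared with the same DMSO plates.

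Heat shock proteins are molecular chaperones that keep other proteins folded. HSP70 proteins hold unfolded chains in a cycle of ATP hydrolysis, J-domain proteins such as DNAJB1 bring chains to them and start hydrolysis, exchange factors such as HSPH1 release the nucleotide, and HSP90 proteins take over kinases, receptors and other late folding clients. Heat or unfolded protein frees the transcription factor HSF1, which forms trimers and binds heat shock elements, repeats of a short unit in alternating orientation, in front of the inducible genes. In the mitochondrial matrix HSPD1 forms the folding chamber known as HSP60, and HSPE1 its lid, HSP10.

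HSPA1A (chr6:31815543-31817942) and HSPA1B (chr6:31827738-31830254) are single-exon neighbours on the plus strand, 9795 bases apart, and HSPD1 (chr2:197486584-197500274, minus strand) and HSPE1 (chr2:197500379-197503449, plus strand) start head to head with 104 bases between them (RefSeq, GRCh38.p14). The windows from 250 bases before to 50 bases after RefSeq transcription starts were searched on both strands for 3 abutting heat shock units, GAANNTTCNNGAA or TTCNNGAANNTTC. Of 35116 windows of this kind, 172 (0.49%) held a match, and so did 166 of 27305 genes (0.608%). All 10 heat shock genes had at least 1 window, 16 in all, and 4 genes held the motif. The matched stretches of these 4 genes are shown, and their link to the changes in the libraries was not tested. The capitals mark the units, the strand is that of the gene, and a match is a description of letters only.
HSPD1, chr2:197500064-197500089, minus strand: cattTTCtgGAAagTTCtgGAAccga
HSP90AB1, chr6:44247774-44247794, plus strand: caggTTCtgGAAgaTTCatgg
HSP90AB1, chr6:44247827-44247847, plus strand: attgTTCtgGAAgcTTCtgga
HSPA8, chr11:123062350-123062370, minus strand: gcttGAAagTTCcaGAAcgct
HSPA8, chr11:123062175-123062195, minus strand: ccccTTCtgGAAggTTCtaag
HSP90AA1, chr14:102087116-102087136, minus strand: gttcTTCcgGAAggTTCggga
The HSPD1 stretch holds 4 units in a row. Counted from the RefSeq start of their own window, the HSPA8 matches begin at -230 and -55, those of HSP90AB1 at -165 and -112, that of HSP90AA1 at -88 and that of HSPD1 at -245. Each of these starts lies inside the outer bounds that RefSeq gives its gene. The windows at the outermost RefSeq starts of HSPD1, HSP90AA1 and HSP90AB1 held no match, so the HSPD1 stretch lies within the gene and not between it and HSPE1, and HSPA8 had 1 window. HSPA1A, HSPA1B, HSPH1, DNAJB1, HSPB1 and HSPE1 held no run of exactly this spacing in their windows.

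Total counts ran from 9268041 to 12184749 in 23 libraries, while the cercosporamide polysome library of replicate 4 held 1592459. The keratins of duct epithelium were high in all 24 libraries, with KRT8 at 2907 to 12921 CPM and KRT18 at 1789 to 5495 CPM, whereas the duct genes KRT7 (3.31 to 38.3 CPM) and MUC1 (0.93 to 6.13 CPM) were low. The sum of the 6 duct markers was 10687 to 16499 CPM in polysome RNA with DMSO and 15997 to 22530 CPM with cercosporamide. Of the markers of acinar, endocrine, fibroblast, immune and endothelial cells, PRSS1, INS, SST, DCN and PTPRC were at 0 in every library and the others reached at most 6.45 CPM, except CD68, a lysosomal protein gene, at 307 to 858 CPM. The part of these marker shifts in the results was not tested.

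HSPA8 had the highest mean level of the set per kilobase in both fractions of cells given DMSO, and HSPH1 the lowest. Values are CPM, a gene's counts per 1e6 counts of all tested genes in the library after TMM scaling, given for replicates 1 to 4 in that order, and levels of different genes are set side by side only per kilobase of the MANE transcript. In total RNA with DMSO the level per kilobase was highest for HSPA8, at 1573 ± 807 CPM per kb (SD, n = 4), followed by HSPE1 at 984.5 ± 491, HSP90AB1 at 609.5 ± 174 and HSPB1 at 371 ± 147. Next came HSPA1A at 216, HSP90AA1 at 166, HSPD1 at 147, DNAJB1 at 129 and HSPA1B at 85.3 CPM per kb. The ranges of all these neighbours overlapped, and only HSPH1, at 7.8 ± 3.76 CPM per kb, lay below its neighbour in the order without overlap. In polysome RNA with DMSO, the means of HSPA8 (1386) and HSP90AB1 (802.5) led, HSPE1 (535) and HSPA1A (411 CPM per kb) came next, and HSPH1 was again last (11.4). Neighbouring ranges overlapped there too, at 761 to 1948 for HSPA8 and 426 to 1169 for HSP90AB1, except for HSPH1. Together the 10 genes took 0.754% ± 0.174 (SD, n = 4) of total RNA counts with DMSO, 0.459% ± 0.117 with CID661578 and 0.596% ± 0.145 with cercosporamide. In polysome RNA the shares were 1.03% ± 0.314, 0.683% ± 0.151 and 1.3% ± 0.405 in the same order. In bulk RNA, fewer cells expressing a gene and less of its RNA per cell cannot be told apart.

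**Figure D1:**
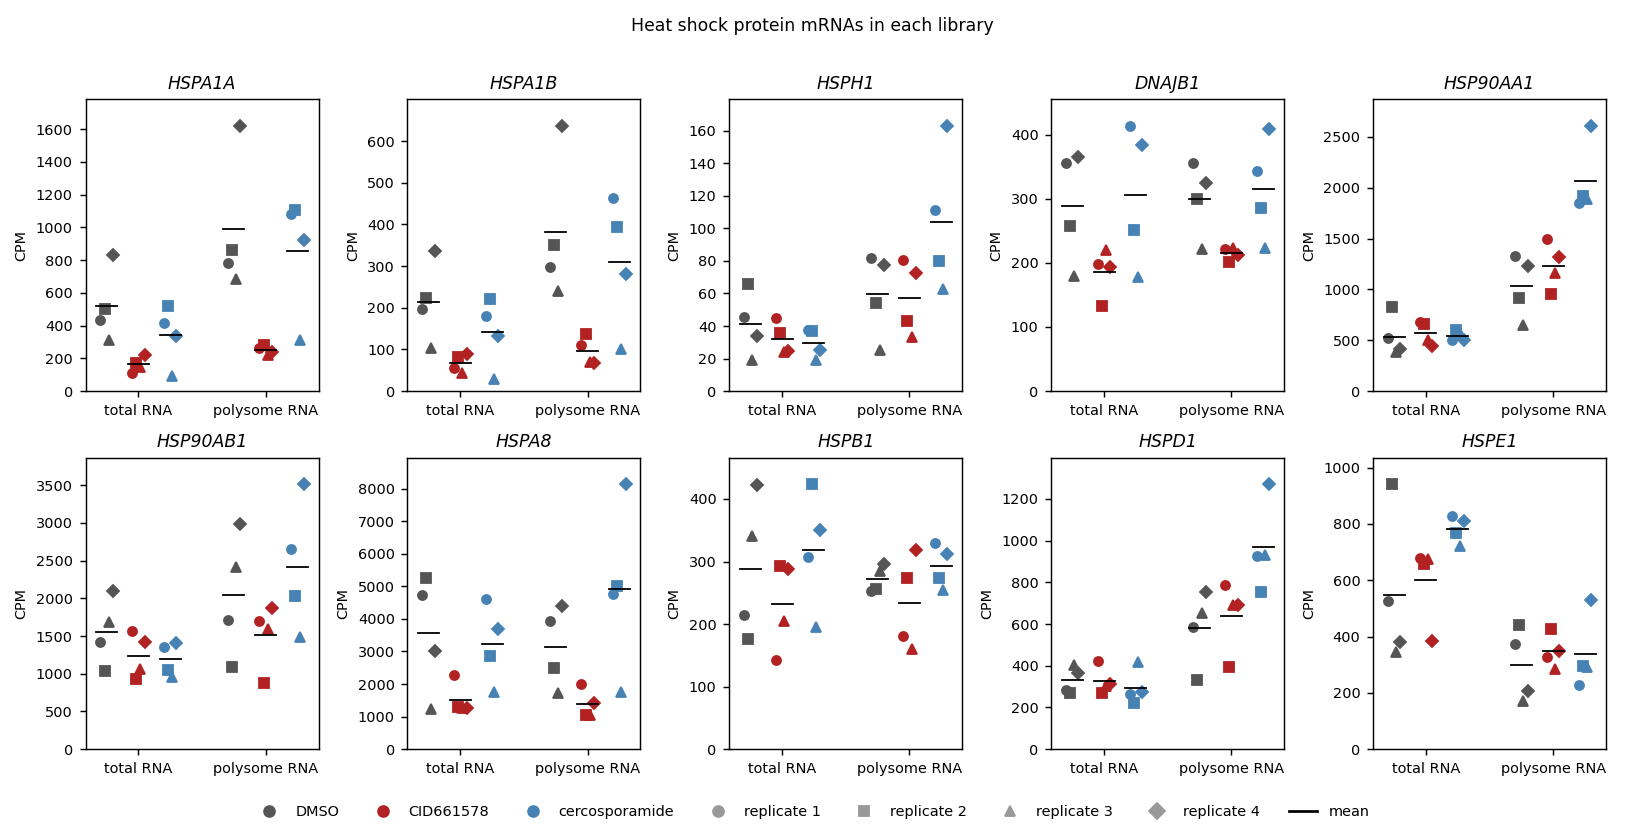
CPM of each heat shock gene in the 24 libraries, by RNA fraction (x axis) and treatment (colour), with 1 symbol per replicate and a bar at the group mean; each panel has its own linear axis from 0. HSPA1A and HSPA1B with CID661578 lay below every DMSO library in both fractions, and HSP90AA1 and HSPD1 in cercosporamide polysome RNA lay above every DMSO polysome library.

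With CID661578, HSPA1A, HSPA1B and HSPA8 fell in total and in polysome RNA, and no gene of the 10 passed the test in translational efficiency (TE), the change in polysome RNA beyond that in total RNA of the same plates. With cercosporamide no gene of the 10 passed the test in total RNA, whereas HSPH1, HSP90AA1, HSPD1 and HSPA8 rose in polysome RNA and HSPH1, HSP90AA1, HSPD1 and HSP90AB1 rose in TE. A gene was called when its adjusted p (from the quasi-likelihood test of edgeR, adjusted after Benjamini and Hochberg over all genes tested) was below 0.15, and for TE also when it changed more than 1.2-fold.

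In total RNA with CID661578, 3 of the 10 genes were called lower and none higher, where 0.133% of all genes tested were called lower. Their median log2 change was -0.33, against -0.01 over all genes. In polysome RNA with this compound, 3 of 10 were called lower against a background of 3.96%, with a median of -0.34 against -0.01. With HSPA1A and HSPA1B summed, as well as other near-identical copies, 2 genes were called lower in total RNA and 2 in polysome RNA. Of all genes, 0.432% and 10.1% were then called in either direction. For TE with CID661578 edgeR called 0 of 10, where 0.207% of all genes were called in either direction. DESeq2 called 0, and 0 had an unadjusted p under 0.05. The 10 log2 TE changes ran from -0.34 in HSPA1B to 0.24 in HSPH1. Over all genes edgeR called 25 in this TE comparison, 1 of them higher. The study's own TE tool, at the same thresholds, reported more genes changed with CID661578. The 0 of 10 here therefore does not show that TE was unchanged. With cercosporamide edgeR called 0 of 10 in total RNA (background 0.381% in either direction), DESeq2 called 0, and 3 had an unadjusted p under 0.05. In cercosporamide polysome RNA, 4 of 10 were called higher, where 18.3% of all genes were, and the median log2 change was 0.25 against -0.01 over all genes. For TE with cercosporamide, 4 of 10 were called higher against 15.8% of all genes, and the median was 0.54 against 0.00.

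**Figure D2:**
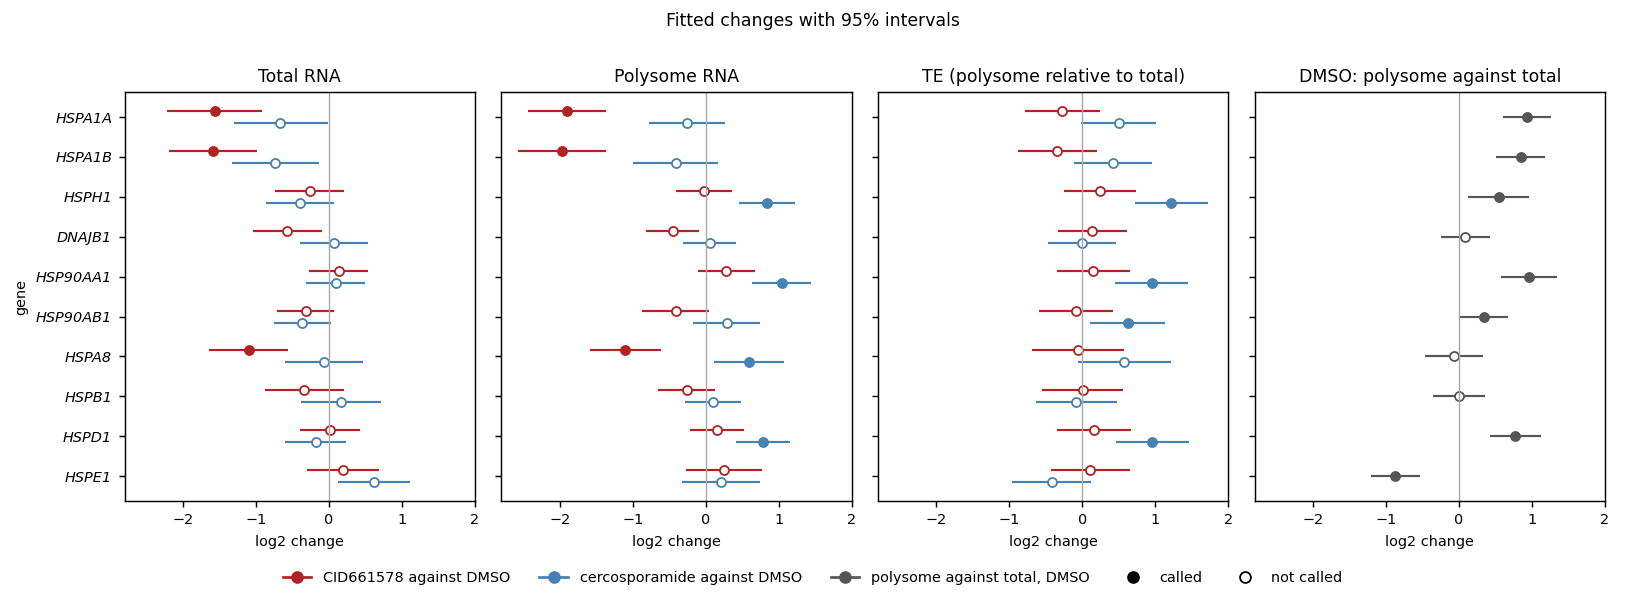
Fitted log2 changes (x axis) of the 10 genes (y axis) with 95% intervals, for each compound against DMSO in total RNA, in polysome RNA and in TE, and for polysome against total RNA with DMSO; filled points were called. With CID661578 the filled points are HSPA1A, HSPA1B and HSPA8 on the negative side in both fractions, and none is filled in TE.

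HSPA1A and HSPA1B encode the stress-induced HSP70, and they showed the deepest fall of the set. HSPA1A in total RNA stood at 433, 503, 311 and 830.1 CPM with DMSO and at 114, 171, 150.3 and 222 CPM with CID661578. In polysome RNA it stood at 785, 859.7, 684 and 1619 CPM with DMSO and at 263.5, 282, 223 and 240.1 CPM with CID661578. Every library with CID661578 lay below every DMSO library of its fraction. The log2 change was -1.57 ± 0.308 (SE, adjusted p = 0.0358) in total RNA, a 2.97-fold fall, and -1.90 ± 0.257 (SE, adjusted p = 0.000119) in polysome RNA, a 3.72-fold fall. HSPA1A fell within 4 of 4 replicates in each fraction, with the largest polysome difference in replicate 4, where DMSO was highest. HSPA1B in total RNA held 196, 223, 104 and 336 CPM with DMSO and 56.4, 83, 43 and 89.8 CPM with CID661578. In polysome RNA it held 298, 349.7, 241 and 636 CPM with DMSO and 112, 136, 70.5 and 67.5 CPM with CID661578. The groups again did not overlap in either fraction. No overlap on the lower side was found for 1.29% of all genes in total RNA and 2.92% in polysome RNA, and HSPA1A and HSPA1B were the 2 of the 10 that showed it in each. These 2 genes share much of their sequence, so their results are not independent. HSPA1B changed by -1.59 ± 0.286 (SE, adjusted p = 0.0156) in total and by -1.97 ± 0.289 (SE, adjusted p = 0.000324) in polysome RNA on the log2 scale. The TE changes with CID661578, -0.28 (adjusted p = 0.744) for HSPA1A and -0.34 (adjusted p = 0.702) for HSPA1B, did not pass the test, with 95% intervals of -0.79 to 0.24 and -0.88 to 0.20. The polysome calls held in every alternative that was run, while the total RNA calls were lost without replicate 4 (adjusted p = 0.403 for HSPA1A and 0.277 for HSPA1B) and without the replicate term (adjusted p = 0.534 and 0.904).

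Under cercosporamide the same pair was divided by replicate. HSPA1A in total RNA was 415, 521, 89.6 and 336 CPM and in polysome RNA 1081, 1103, 315 and 920.2 CPM. Against the DMSO plate of the same replicate, the log2 differences in total RNA were -0.06, 0.05, -1.80 and -1.31 for HSPA1A and -0.11, -0.01, -1.81 and -1.35 for HSPA1B. Replicates 1 and 2 were near their DMSO level and replicates 3 and 4 well below it. Neither gene passed the test in total RNA, at -0.67 (adjusted p = 0.426) and -0.74 (adjusted p = 0.343), nor in polysome RNA, at -0.25 (adjusted p = 0.513) and -0.41 (adjusted p = 0.325). With no filter on low counts both were called lower in total RNA (adjusted p = 0.0994 and 0.0814) and HSPA1B in polysome RNA (0.0569). Without replicate 1 the polysome change of HSPA1B was -0.78 and called (adjusted p = 0.0863). TE against DMSO was above 0 within 4 of 4 replicates for each gene but was not called, at 0.50 (adjusted p = 0.18) and 0.42 (adjusted p = 0.296). HSPA1A and HSPA1B share 75.1% of the 50-base windows of the HSPA1A transcript, and reads with several alignments were counted at each, so their separate counts are uncertain. The ratio of HSPA1A to HSPA1B counts was 2.01 to 3.56 over the 24 libraries.

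HSPH1, the HSP110 exchange factor of HSP70, was the least abundant of the set and rose on polysomes with cercosporamide. In polysome RNA it held 81.8, 54.3, 25.1 and 77.3 CPM with DMSO, 111, 79.9, 62.7 and 163 CPM with cercosporamide and 80.3, 42.9, 33.4 and 72.6 CPM with CID661578. In total RNA it held 45.3, 65.7, 19.1 and 33.7 CPM with DMSO and 37.6, 37, 19.3 and 25.2 CPM with cercosporamide. The groups overlapped in each fraction, yet within each replicate the cercosporamide polysome library was the higher. The polysome change with cercosporamide was 0.84 ± 0.184 (SE, adjusted p = 0.00304) and the TE change 1.22 ± 0.241 (SE, adjusted p = 0.00151), the largest TE change of the 10 with this compound. Within replicates the log2 TE differences were 0.71, 1.39, 1.31 and 1.49, all above 0. Without the replicate term the polysome call was lost (adjusted p = 0.216), and the TE call was lost only when the plate and replicate terms were both left out (adjusted p = 0.211). With CID661578 the polysome change of HSPH1 was -0.02 (adjusted p = 0.967).

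DNAJB1, the J-domain partner of inducible HSP70, was lower in 3 of 4 replicates with CID661578 but missed the threshold. In total RNA it held 355, 257.5, 179.7 and 364 CPM with DMSO and 199, 133, 220 and 194 CPM with CID661578, and in polysome RNA 355, 299, 222 and 325 CPM with DMSO and 221, 202, 224 and 212 CPM with CID661578. Replicate 3, the lowest DMSO library in each fraction, was the one that did not fall. The log2 changes were -0.57 (adjusted p = 0.611) in total and -0.45 (adjusted p = 0.161) in polysome RNA, with 95% intervals of -1.04 to -0.10 and -0.82 to -0.09. DESeq2 called the polysome difference (adjusted p = 0.117), and so did edgeR without the cercosporamide plates (0.097) and without replicate 3 (0.143). Without replicate 3 the total RNA change was -0.90 and also called (adjusted p = 0.0704). With cercosporamide the polysome values were 342.5, 285, 224 and 409 CPM and the log2 change 0.06 (adjusted p = 0.851).

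HSP90AA1, the stress-responsive cytosolic HSP90, moved on polysomes and not in total RNA. Its polysome levels were 1332.5, 916, 649 and 1233 CPM with DMSO, 1497, 955, 1158 and 1323 CPM with CID661578 and 1846, 1915, 1892 and 2606 CPM with cercosporamide. In total RNA they were 518, 823, 389 and 412 CPM with DMSO and 504, 599.7, 572 and 505 CPM with cercosporamide. All 4 cercosporamide polysome libraries lay above all 4 with DMSO, which held for 2 of the 10 genes, HSP90AA1 and HSPD1, and for 8.43% of all genes, whereas the total RNA values overlapped. The log2 change was 1.04 ± 0.193 (SE, adjusted p = 0.000737) in polysome RNA, 0.09 (adjusted p = 0.916) in total RNA and 0.95 ± 0.242 (SE, adjusted p = 0.00945) in TE. The TE call was kept in 16 of 16 alternatives. With CID661578, HSP90AA1 was not called in polysome RNA, at 0.28 (adjusted p = 0.432).

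HSP90AB1, the constitutive cytosolic HSP90, changed less. Its total RNA levels were 1415, 1038, 1681 and 2095 CPM with DMSO and 1356, 1052, 957 and 1405.5 CPM with cercosporamide, and its polysome levels 1713, 1089, 2413 and 2987 CPM with DMSO and 2655, 2026.5, 1486 and 3516 CPM with cercosporamide. The groups overlapped throughout. Neither the polysome change, 0.29 (adjusted p = 0.385), nor the total RNA change, -0.37 (adjusted p = 0.485), was called, while their difference, the TE change of 0.62 ± 0.247 (SE, adjusted p = 0.0858), was. Called TE changes were classed only by whether the total or the polysome change was larger in absolute size. HSP90AB1, with the larger total RNA change, fell into the buffered class, and HSPH1, HSP90AA1 and HSPD1 into the hypertranslated class. For HSP90AB1 these changes had opposite signs and neither was called. Their sizes differed by less than their SE, 0.189 in total and 0.22 in polysome RNA, so its class is uncertain. Without replicate 3 the polysome change of HSP90AB1 was 0.54 and called (adjusted p = 0.136). This TE call was lost without replicate 1 (adjusted p = 0.206), 2 (0.336) or 4 (0.226), and without the shallow cercosporamide polysome library (0.182). With CID661578 the log2 changes were -0.32 (adjusted p = 0.791) in total and -0.41 (adjusted p = 0.308) in polysome RNA.

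HSPA8 encodes the constitutive HSP70, HSC70, and had the highest mean per kilobase with DMSO. With CID661578 its mean lay below that of HSPE1 in total RNA, at 669 against 1076 CPM per kb with overlapping ranges. In total RNA it held 4730.2, 5269, 1228 and 3017 CPM with DMSO, 2264, 1283, 1254 and 1258 CPM with CID661578 and 4619, 2864, 1770.3 and 3678 CPM with cercosporamide. In polysome RNA it held 3939, 2483, 1724 and 4409 CPM with DMSO, 1997, 1059, 1058 and 1407.5 CPM with CID661578 and 4752, 5025, 1751 and 8144 CPM with cercosporamide. With CID661578 the total RNA level fell in replicates 1, 2 and 4, while replicate 3, at 1254 CPM, was near its DMSO library at 1228 CPM. In total RNA the overlap with DMSO came from the low DMSO library of replicate 3. In polysome RNA it was between the low DMSO library of replicate 3 and CID661578 replicate 1. The log2 change with CID661578 was -1.10 ± 0.259 (SE, adjusted p = 0.126) in total RNA and -1.10 ± 0.235 (SE, adjusted p = 0.0111) in polysome RNA. It fell within 3 of 4 replicates in total RNA and 4 of 4 in polysome RNA. The total RNA call was lost without replicate 1 (adjusted p = 0.241), 2 (0.576) or 4 (0.721) and without the replicate term (adjusted p of 1), and the polysome call without the replicate term (0.291). With cercosporamide the polysome change was 0.60 ± 0.234 (SE, adjusted p = 0.0787), and without the shallow library, whose HSPA8 level was the highest of all, it was 0.32 (adjusted p = 0.382). That call was also lost without replicate 2 (0.333), without replicate 4 (0.248) and without the replicate term (0.32). In TE HSPA8 was not called with either compound, at -0.06 (adjusted p = 0.965) and 0.57 (adjusted p = 0.218). Without replicate 3 the TE change with cercosporamide was 0.90 and called (adjusted p = 0.109).

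HSPB1, the small heat shock protein HSP27, which holds unfolded proteins without ATP, was not called in any treatment comparison. Its range was 175 to 422 CPM in total RNA with DMSO, 143 to 293 with CID661578 and 195 to 424 with cercosporamide. In polysome RNA it was 253 to 296, 161 to 319 and 255 to 329 CPM. The 95% intervals of its log2 changes in polysome RNA were -0.65 to 0.13 with CID661578 and -0.29 to 0.49 with cercosporamide.

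The mitochondrial pair HSPD1 and HSPE1 differed from each other in fraction and in treatment. HSPD1 in polysome RNA held 587, 331, 652 and 753 CPM with DMSO, 788, 392, 692 and 689 CPM with CID661578 and 925, 756, 929 and 1271 CPM with cercosporamide. In total RNA it held 283, 268, 405 and 364 CPM with DMSO and 263, 221, 416 and 276 CPM with cercosporamide. The cercosporamide polysome libraries lay above those with DMSO without overlap, and the total RNA libraries overlapped. HSPD1 changed by 0.78 ± 0.178 (SE, adjusted p = 0.00402) in polysome RNA and by 0.96 ± 0.246 (SE, adjusted p = 0.00956) in TE with cercosporamide, while the total RNA change was -0.18 (adjusted p = 0.782). The TE call was lost when the plate and replicate terms were both left out (adjusted p = 0.183). HSPE1 in total RNA stood at 525, 942, 345 and 382 CPM with DMSO and 828, 767, 721 and 809.8 CPM with cercosporamide, and in polysome RNA at 375, 439.5, 172 and 205.5 CPM with DMSO and 227, 296, 291 and 531 CPM with cercosporamide. The cercosporamide libraries of total RNA were close together and 3 of the 4 DMSO libraries lay below them. The log2 changes of HSPE1 were 0.61 (adjusted p = 0.341) in total RNA, 0.21 (adjusted p = 0.617) in polysome RNA and -0.42 (adjusted p = 0.298) in TE, none of them called, the last with a 95% interval of -0.96 to 0.12. Without replicate 2 the total RNA change was 0.94 and called (adjusted p = 0.134), and without replicate 4 the TE change was -0.69 and called (adjusted p = 0.1). With CID661578 neither gene of the pair was called in any measure, and the TE intervals were -0.34 to 0.67 for HSPD1 and -0.43 to 0.65 for HSPE1. Near-identical copies held 20% to 29.3% as many counts as HSPD1 itself and 7.86% to 24.7% as many as HSPE1, so the counts of this pair are uncertain. Reads with several alignments were counted at each place, so these shares do not bound the uncertainty. Copies held 6.74% to 11.7% as many counts as HSP90AA1 and 2.33% to 12% as many as HSPB1. For HSPA8 the share was 1.27% to 6.89% and for HSP90AB1 2.9% to 5.51%.

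In cells given DMSO the 10 mRNAs were distributed unequally between polysomes and total RNA. With DMSO, 6 of 10 were called higher in polysome than in total RNA and 1 lower, where 27.7% of all genes were called higher and 30.6% lower. The higher genes were HSP90AA1, at a log2 difference of 0.96 ± 0.188 (SE, adjusted p = 6.42e-05), HSPA1A at 0.93 (adjusted p = 1.09e-05), HSPA1B at 0.85 (adjusted p = 7.18e-05), HSPD1 at 0.77 (adjusted p = 0.000259), HSPH1 at 0.55 (adjusted p = 0.0268) and HSP90AB1 at 0.34 (adjusted p = 0.0764). HSPE1 was the lower one, at -0.87 ± 0.165 (SE, adjusted p = 4.36e-05), so the genes of the mitochondrial chaperonin and its lid lay on opposite sides. Within the 4 plates the log2 differences were 1.05, 0.31, 0.69 and 1.05 for HSPD1 and -0.48, -1.10, -1.01 and -0.90 for HSPE1. DNAJB1, HSPA8 and HSPB1 were not called, at 0.09, -0.07 and 0.00. When the fractions were scaled apart, DNAJB1 was 0.36 and called higher (adjusted p = 0.0632), and HSPA8 was 0.20 and not called. Without the replicate term HSPH1 (adjusted p = 0.286) and HSP90AB1 (0.334) were no longer called. HSPH1 was also lost without replicate 1 (0.155) or 4 (0.179), and HSP90AB1 without replicate 1 (0.171). With HSPA1A and HSPA1B summed, as well as other near-identical copies, 5 genes were called higher and 1 lower.

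The compounds were also compared with each other directly, without the DMSO plates entering the contrast, at 1 dose each and at the same time, and the doses were not matched. For the fractions this comparison was added after the counts were seen. In polysome RNA 8 of the 10 genes were lower with CID661578 than with cercosporamide, where 12.8% of all genes were. HSPA8 differed by -1.70 ± 0.242 (SE, adjusted p = 3e-04), HSPA1A by -1.64 ± 0.256 (SE, adjusted p = 0.000613) and HSPA1B by -1.56 ± 0.285 (SE, adjusted p = 0.00219), and HSPH1 by -0.86 (adjusted p = 0.00636), HSP90AA1 by -0.75 (adjusted p = 0.0179), HSPD1 by -0.62 (adjusted p = 0.0314), HSP90AB1 by -0.70 (adjusted p = 0.0485) and DNAJB1 by -0.51 (adjusted p = 0.0695). All CID661578 libraries lay below all cercosporamide libraries for 3 of the 10, HSPA1A, DNAJB1 and HSP90AA1, and for 4.28% of all genes. HSPB1 (-0.76 to 0.03) and HSPE1 (-0.48 to 0.57) were not called, with their 95% intervals in parentheses. Without the replicate term only HSPA8, HSPA1A and HSPA1B stayed called in polysome RNA. DNAJB1 was also lost without replicate 1 (adjusted p = 0.212), 2 (0.23) or 4 (0.38), without the shallow library (0.267) and with no filter (0.251). HSP90AB1 was lost without replicate 2 (adjusted p = 0.307) or 4 (0.153), and HSPD1 without replicate 2 (0.226). In total RNA 1 of 10 was lower, HSPA8 at -1.03 ± 0.255 (SE, adjusted p = 0.146), where 0.249% of all genes were, and this call was lost in 6 of 12 alternatives, among them those without replicate 1 (adjusted p = 0.607), 2 (0.307) and 4 (0.761) and without the replicate term (0.809). Without replicate 3, HSPA1A (-1.39, adjusted p = 0.0215), HSPA1B (-1.24, adjusted p = 0.0404) and DNAJB1 (-0.97, adjusted p = 0.0356) were also called lower in total RNA. In the same fraction HSPE1 was lower in all CID661578 libraries than in all cercosporamide libraries, as were 2.14% of all genes, but its difference was not called, at -0.42 (adjusted p = 0.594). For TE 6 of 10 were lower with CID661578 than with cercosporamide, against 7.57% of all genes, namely HSPH1 at -0.98 (adjusted p = 0.0191), HSP90AA1 at -0.80 (adjusted p = 0.0496), HSPD1 at -0.80 (adjusted p = 0.0528), HSPA1A at -0.78 (adjusted p = 0.0652), HSPA1B at -0.76 (adjusted p = 0.0856) and HSP90AB1 at -0.71 (adjusted p = 0.0877). Of these, HSPH1 kept the call whichever replicate was left out. HSPA1A lost it without replicate 2 (adjusted p = 0.168), 3 (0.254) or 4 (0.232), and HSPA1B without 3 (0.248), 4 (0.316) or the shallow library (0.186). HSP90AA1 lost it without replicate 1 (adjusted p = 0.151) or 2 (0.288), and HSPD1 without 1 (0.188), 2 (0.32) or 4 (0.156). HSP90AB1 lost it without replicate 1 (adjusted p = 0.263), 2 (0.381), 4 (0.202) or the shallow library (0.168). With HSPA1A and HSPA1B summed, and other near-identical copies too, 7 genes were called lower in polysome RNA and 5 in TE.

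Averaged over the treatments, replicates differed for several of the genes. In total RNA the replicate term was called for 5 of 10 genes, where it was called for 22.1% of all genes, and in polysome RNA for 6 of 10, against 36.4%. Called in both fractions were HSPA1A (adjusted p = 0.119 in total and 0.0914 in polysome RNA), HSPA1B (0.0239 and 0.0548), HSPH1 (0.032 and 0.00063), HSP90AB1 (0.142 and 0.0261) and HSPA8 (0.0438 and 0.0081), and HSPD1 was called in polysome RNA (0.0176). Averaged over the 3 treatments, replicate 3 was the low one for HSPA1A, HSPA1B, HSPA8 and HSPH1, with a mean log2 deviation from the group means of -0.80 in total and -0.63 in polysome RNA for HSPA1A, -1.15 and -0.78 for HSPA1B, -0.78 and -0.80 for HSPA8, and -0.64 and -0.81 for HSPH1. This did not hold within every group. With CID661578, HSPA1A in total RNA was lowest in replicate 1 and HSPA1B in polysome RNA in replicate 4, and HSPA8 in total RNA was alike in replicates 2, 3 and 4, at the values given above. Whether the replicate differences depend on treatment was not tested. For HSPD1 the deviations of replicate 3 were 0.26 and 0.12, on the other side. Replicate 2 was the low one for HSPD1, at -0.3 and -0.58, and for HSP90AB1, at -0.37 and -0.57. Without replicate 2 the polysome calls of HSPD1 (adjusted p = 0.811) and HSP90AB1 (0.425) were lost. Without replicate 3, edgeR called 0 of the 10 for replicate differences in total RNA, where 10.8% of all genes were called and 6 of the 10 had an unadjusted p under 0.05, and 3 in polysome RNA, where 23.7% were. Without replicate 2 the counts were 3 (5.25% of all genes) and 2 (6.01%), and without replicate 4 they were 3 (17.3%) and 7 (38%). With HSPA1A, HSPA1B and other near-identical copies summed they were 4 (22%) and 5 (36.4%).

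**Figure D3:**
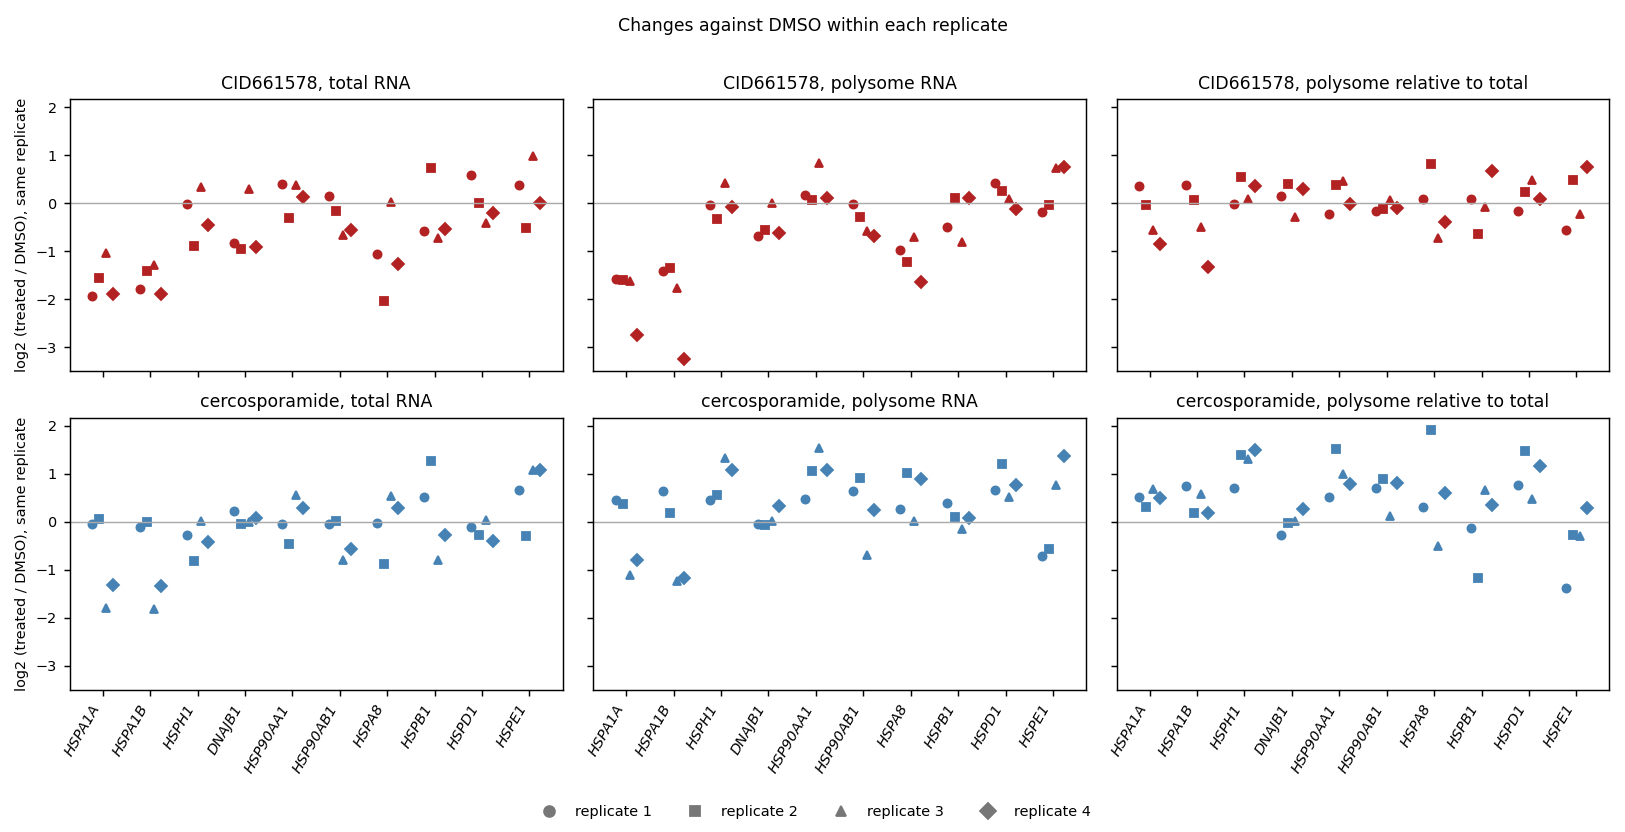
Log2 ratio of treated to DMSO CPM within each replicate (y axis) for the 10 genes (x axis), in total RNA, polysome RNA and polysome relative to total, with 1 symbol per replicate. With CID661578 the 4 points of HSPA1A and HSPA1B lie below 0 in both fractions; with cercosporamide in total RNA, replicates 1 and 2 of these genes lie near 0 and replicates 3 and 4 below -1.

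Other genes of the heat shock response were counted from 4 lists, namely heat shock factors (3 of 4 tested), other HSF1 targets (14 of 16), cytosolic cochaperones and relatives (17 of 17) and mitochondrial chaperones (9 of 9). In total RNA edgeR called 0 genes of any list with either compound. At an unadjusted p under 0.05 there were 0, 5, 1 and 0 genes with CID661578 and 0, 2, 2 and 2 with cercosporamide in the order of the lists, and DESeq2 called 0 genes with CID661578 and 2 other HSF1 targets and 1 cochaperone with cercosporamide. The 5 other HSF1 targets with CID661578 were all lower. That list's median log2 change was -0.24, against -0.01 over all genes. For TE with CID661578 edgeR and DESeq2 also called 0, with 1, 2, 3 and 1 genes at an unadjusted p under 0.05. In polysome RNA with CID661578, 5 of the listed genes were called, a share near the 10.1% of all genes called in either direction. HSF1 itself changed by -0.66 (adjusted p = 0.137), BAG3, an HSP70 exchange factor, by -0.59 (adjusted p = 0.0949), and HSPA2, an HSP70 relative best known from the testis, by -1.70 (adjusted p = 0.0086), while the HSP90 partner gene CHORDC1, at 0.49 (adjusted p = 0.0928), and GRPEL2, a mitochondrial exchange factor gene, at 0.78 (adjusted p = 0.0548), were higher.

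For TE with cercosporamide, 15.8% of all genes were called higher and 12.6% lower. Of the 3 heat shock factors 1 was called higher and 2 lower. HSF2 was at 1.44 (adjusted p = 0.0019), HSF1 at -1.22 (adjusted p = 0.0334) and HSBP1, which binds HSF1 trimers, at -0.83 (adjusted p = 0.018). Of the 14 other HSF1 targets 5 were called higher and none lower, with CHORDC1 at 1.84 (adjusted p = 5.51e-05), DNAJB4 at 2.09 (adjusted p = 0.000889), the J-domain gene DNAJA1 at 1.11 (adjusted p = 0.00377) and HSPA4L, of the HSP110 group, at 1.17 (adjusted p = 0.00701). The list's median was 0.10, against 0.00 over all genes. Of the 17 cochaperones 5 were higher and 1 lower, with HSPA4, another HSP110-type exchange factor, at 1.54 (adjusted p = 0.000133), ST13 at 0.91 (adjusted p = 0.0109), DNAJC7 at 0.75 (adjusted p = 0.114) and BAG1 at -1.58 (adjusted p = 0.00731), and the median was 0.43. Among the 9 mitochondrial genes HSPA9, the matrix HSP70, was higher at 0.97 (adjusted p = 0.00716), and the J-domain genes DNAJC19, at -1.21 (adjusted p = 0.00193), and DNAJA3, at -0.66 (adjusted p = 0.092), were lower.

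In cercosporamide polysome RNA, where 18.3% of all genes were called higher and 13.8% lower, the lists had 1 factor higher and 1 lower, 5 other targets higher and 1 lower, 6 cochaperones higher and 1 lower, and 1 mitochondrial gene higher and 1 lower. The leading values were CHORDC1 at 1.56 (adjusted p = 4.01e-06), HSPA4 at 1.11 (adjusted p = 9.34e-05), HSF2 at 0.98 (adjusted p = 0.00169), HSPA4L at 0.79 (adjusted p = 0.00453) and, on the lower side, BAG1 at -1.07 (adjusted p = 0.0264), DNAJC19 at -0.79 (adjusted p = 0.0126) and HSF1 at -0.76 (adjusted p = 0.0405).

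The 3 genes most like each of 4 chaperones were ranked by Pearson's r of log2 CPM over the 24 libraries, which share plates and fractions, so r is a description. For HSPA1A they were CCNF (0.899), GEMIN4 (0.899) and BAG3 (0.883), and for HSPA8 LOC100653395 (0.858), SMG8 (0.836) and HJURP (0.827). HSP90AA1 was closest to PHF14 (0.964), LRPPRC (0.961) and AGPS (0.953), and HSPD1 to RRM1 (0.976), UTP6 (0.974) and the cytosolic chaperonin subunit gene CCT2 (0.97).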

How the data were processed

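The authors made Smart-seq2 libraries from total cytosolic and polysome RNA, sequenced them in pairs of 50 bases, removed rRNA reads with BBDuk and aligned the rest to hg38 with HISAT2. Reads were assigned to RefSeq genes by featureCounts at its defaults, so strand was ignored and a read that aligned in several places counted in every one. The deposited values are raw counts, whole numbers for 54583 genes in 24 libraries, with no normalization, and no spike-in was stated. Differences are therefore relative to the other RNA of the fraction.

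Only genes seen in all libraries (a count of at least 1) were kept, TMM factors were set over all libraries, and CPM were computed from them. Counts were tested with edgeR 4.0.16 in R 4.3.3 by the quasi-likelihood test (glmQLFit, glmQLFTest) with Benjamini-Hochberg adjustment. Within a fraction the model held replicate and treatment. TE was the compound's effect in polysome relative to total RNA in 1 model with a term for each of the 12 plates and for replicate within fraction. DMSO polysome and total RNA were compared in a model with replicate and fraction. The thresholds, an adjusted p of 0.15 and a 1.2-fold change for TE, follow the study's methods, which also name replicate as a batch; their tool for TE was not installed. SE and 95% intervals come from the same fits. The fits were also run on counts simulated from the fitted model with its own terms, which cannot show that these terms suit the real data. Alternatives were DESeq2 1.42.0, other scalings and filters, models without the replicate term, leaving out libraries, analysis of partial variance with limma 3.58.1 and summed near-identical copies.

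The methods call the replicates biological, and groups came from the labels. Depth was 1592459 counts in the cercosporamide polysome library of replicate 4 and 9268041 or more elsewhere, so values of that library carry more counting error. No 2 libraries agreed within sampling noise (lowest chi-square per degree of freedom 14.9). All 10 heat shock genes are named, and up to 4 called genes of smallest adjusted p per list and comparison. The genes and lists were chosen with earlier results of these data known. Promoter stretches and coordinates are from RefSeq (GRCh38.p14), and copies were compared by exact 50-base windows of MANE transcripts.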

Additional observations from a re-analysis of the deposited data

Results flagged for a closer look

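3 of the 60 sets of 4 libraries (10 genes in 6 groups) held a value far from the other 3 by Dixon's criterion at the 95% level, and chance flags about 1 in 20. HSP90AA1 in the cercosporamide polysome library of replicate 4, the shallow one, was at 2606 CPM against 1846 to 1915 CPM in the others. HSPA8 in CID661578 total RNA of replicate 1 was at 2264 CPM against 1254 to 1283 CPM. HSPE1 in CID661578 total RNA of replicate 4 was at 383 CPM against 659 to 681 CPM.

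The change against DMSO differed between the fractions, by the test of the difference itself, for 4 genes with cercosporamide, at log2 values of 0.95 for HSP90AA1, 1.22 for HSPH1, 0.62 for HSP90AB1 and 0.96 for HSPD1. Between the compounds the difference of the fractions differed for 6 genes, at -0.98 for HSPH1, -0.80 for HSP90AA1, -0.80 for HSPD1, -0.78 for HSPA1A, -0.76 for HSPA1B and -0.71 for HSP90AB1 (CID661578 relative to cercosporamide).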

How the results depend on the processing

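The shallow cercosporamide polysome library limits values of that group, and no spike-in fixes the absolute level of a fraction. Counts of HSPA1A and HSPA1B, and of genes with near-identical copies, are uncertain. The number of the 10 genes called moved by over 1.5 times under these settings. For TE with cercosporamide 4 genes were called, against 1 without plate and replicate terms. For TE between the compounds 6 genes were called, against 0 without plate and replicate terms, 2 at an adjusted p of 0.05 and 2 to 4 with each replicate left out. For total RNA with CID661578 3 genes were called, against 0 without the replicate block and 0 to 4 with each replicate left out. For total RNA with cercosporamide 0 genes were called, against 2 with no filter and 0 to 1 with each replicate left out. For total RNA between the compounds 1 gene was called, against 0 without the replicate block, 0 with fractions scaled apart, 3 with no filter, 0 at an adjusted p of 0.05 and 0 to 4 with each replicate left out. For polysome RNA with cercosporamide 4 genes were called, against 2 without the replicate block. For polysome RNA between the compounds 8 genes were called, against 3 without the replicate block and 5 to 8 with each replicate left out. For replicate differences in total RNA 5 genes were called, against 3 at an adjusted p of 0.05 and 0 to 6 with each replicate left out. For replicate differences in polysome RNA 6 genes were called, against 2 to 8 with each replicate left out.

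The replicate block was in the models because the study's methods name it. Deviations of same-numbered libraries correlated at over 0.1 in 13 of 16 pairs of groups (range -0.0155 to 0.551), so the numbers are not shown to pair the plates throughout. Without the block the genes called were 0 in total and 2 in polysome RNA with CID661578, 0 and 2 with cercosporamide, 0 and 3 between the compounds, 5 between the DMSO fractions, and 0, 4 and 6 for TE in the order CID661578, cercosporamide and the difference.

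Counts over all genes moved more. In total RNA with CID661578 they were 54 in the reported fit, 166 by DESeq2, 236 with no filter and 5 without the block. In total RNA with cercosporamide they were 46 in the reported fit, 411 by DESeq2, 186 with no filter and 0 without the block. In total RNA between the compounds they were 69 in the reported fit, 259 by DESeq2, 237 with no filter and 12 without the block. In TE with CID661578 they were 25 in the reported fit, 54 by DESeq2, 102 with no filter and 21 without the block. In polysome RNA with CID661578 they were 1221 in the reported fit, 1527 by DESeq2, 1226 with no filter and 69 without the block. In polysome RNA between the compounds they were 2683 in the reported fit, 2816 by DESeq2, 2238 with no filter and 344 without the block. With each replicate left out they ran from 12 to 341 for TE with CID661578. For the other 5 the ranges were 12 to 75 for total RNA with CID661578, 1 to 130 for total RNA with cercosporamide, 19 to 214 for total RNA between the compounds, 420 to 1046 for polysome RNA with CID661578 and 949 to 2193 for polysome RNA between the compounds. TE with CID661578 gave 9 without plate and replicate terms.

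Of the values of single genes under all alternatives, 1373 kept their direction and side of the threshold, 97 lost and 28 gained a call, and 50 changed sign, none of a gene called in the reported fit. The cause was not tested. In TE with CID661578, DNAJB1 was 0.14 and became -0.15 by analysis of partial variance, HSP90AB1 was -0.09 and became 0.03 by analysis of partial variance, HSPA8 was -0.06 and became 0.05 without plate and replicate terms and -0.35 to 0.13 by replicate left out, HSPB1 was 0.01 and became -0.02 with no filter, -0.21 by analysis of partial variance and -0.23 to 0.22 by replicate left out, HSPE1 was 0.11 and became -0.12 to 0.33 by replicate left out. In TE with cercosporamide, DNAJB1 was -0.01 and became 0.00 with fractions scaled apart, 0.02 by analysis of partial variance and -0.13 to 0.08 by replicate left out, HSPB1 was -0.08 and became 0.06 by analysis of partial variance and -0.35 to 0.28 by replicate left out. In TE between the compounds, HSPB1 was 0.09 and became -0.06 to 0.36 by replicate left out. In total RNA with CID661578, HSPD1 was 0.01 and became -0.01 without the replicate block, -0.02 with 1 compound only, 0.00 with fractions scaled apart and -0.20 to 0.13 by replicate left out, HSPE1 was 0.19 and became -0.06 to 0.47 by replicate left out. In total RNA with cercosporamide, HSP90AA1 was 0.09 and became -0.08 to 0.28 by replicate left out, HSPA8 was -0.07 and became -0.23 to 0.24 by replicate left out, HSPB1 was 0.16 and became -0.16 to 0.46 by replicate left out. In total RNA between the compounds, HSP90AA1 was 0.04 and became -0.09 to 0.16 by replicate left out, HSP90AB1 was 0.04 and became -0.02 to 0.13 by replicate left out. In polysome RNA with CID661578, HSPH1 was -0.02 and became -0.18 to 0.09 by replicate left out. In polysome RNA with cercosporamide, DNAJB1 was 0.06 and became -0.01 with DESeq2 size factors, -0.02 with filterByExpr, -0.06 with no filter, -0.13 without the shallow library and -0.11 to 0.10 by replicate left out, HSPB1 was 0.10 and became -0.02 with no filter and 0.00 to 0.16 by replicate left out, HSPE1 was 0.21 and became -0.18 without the shallow library and -0.26 to 0.53 by replicate left out. In polysome RNA between the compounds, HSPE1 was 0.05 and became -0.10 to 0.38 by replicate left out. In polysome against total RNA with DMSO, HSPA8 was -0.07 and became 0.20 with fractions scaled apart, 0.02 with filterByExpr, 0.05 with no filter and -0.20 to 0.26 by replicate left out, HSPB1 was 0.00 and became -0.08 without the replicate block, -0.03 with copies summed and -0.18 to 0.26 by replicate left out.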
